A study of Mus musculus with 16 samples.

Results

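Bone marrow-derived macrophages that had received both the LXR agonist T0901317 (T0) and lipopolysaccharide (LPS) were compared with vehicle-treated macrophages by their lists of open enhancers. Open chromatin was mapped by ATAC-seq, an assay that tags accessible DNA with a transposase. A vehicle (Veh) peak that no T0-LPS peak overlapped by at least 1 bp was called closed, and a T0-LPS peak that no Veh peak overlapped was called opened. Of 35551 Veh peaks, 6282 were closed (17.7%, Wilson 95% interval 17.3 to 18.1). Of 31085 T0-LPS peaks, 1419 were opened (4.56%, interval 4.34 to 4.80). A further 28475 peaks matched 1 to 1 between the lists, and 794 Veh peaks and 1191 T0-LPS peaks overlapped without such a match. Together these sets account for all 66636 peaks of both lists, of 129656 peaks in the 4 lists of the series. Each set was then split by whether the lists of cells that received T0 alone or LPS alone showed the same change.

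The 16 libraries of 50000 cells came from macrophages of female C57BL/6J mice, grown from marrow with L-cell conditioned medium and kept without serum for a day. On day 8 the 4 Veh libraries received DMSO for 3 h and the 4 T0 libraries 500 nM T0 for 3 h. The LPS and T0-LPS libraries, 4 each, received the same pretreatments and then 10 ng/mL LPS in the same medium for a further 2 h. Cells with T0 and LPS therefore also spent longer in culture than Veh cells, and the effect of that time cannot be told apart from that of LPS. All groups share the strain, and no other genotype is given.

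LXR is a nuclear receptor that is activated by oxysterols and binds DNA with RXR, classically at direct repeats of AGGTCA separated by 4 bases, called DR4. Its known targets include the sterol transporters Abca1 and Abcg1 and the lipogenic regulator Srebf1. LPS signals through TLR4 and activates NF-kB and, through interferon, factors that bind the interferon-stimulated response element (ISRE). In macrophages these factors act on enhancers that PU.1, C/EBP and AP-1 factors have made accessible.

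The authors pooled the 4 libraries of a group to call peaks and kept those at known macrophage enhancers, so no value below has a replicate check and no p-value is given. Intervals cover counting error only, and the read depth of each library is unknown. The score is a peak strength that grows with depth, and its median in the Veh, T0, LPS and T0-LPS lists was 372, 305, 319 and 292. Scores of different lists are therefore not on 1 scale, and a lower score in another list can go with an equal or higher percentile. The T0 list held 29839 peaks and the LPS list 33181. Score percentiles below are ranks within a list and not amounts of open chromatin. Of 8 macrophage marker genes, 7 had a Veh peak and 8 a T0-LPS peak within 1 kb of a transcription start site (TSS), with Csf1r the exception in Veh. Of 6 genes each for other cells, the Veh list had a peak at 0 T cell, 2 B cell (Ms4a1 and Ebf1), 1 neutrophil (S100a8) and 2 fibroblast markers (Col1a1 and Pdgfra), and the T0-LPS list at 0, 2, 1 and 0.

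The regions below are printed from the GRCm38 plus strand, 5′ to 3′, as examples of the motifs whose shares are compared below, and were chosen because they hold a match. Capitals mark matches to DR4 (AGGTCA repeated after 4 bases, up to 2 mismatches) or to the hexamer AGGTCA in the Pltp, Abcg1 and Arhgef3 regions. They mark ISRE (GAAA repeated after 2 bases) in the Isg15 region and NF-kB in the others.
Pltp, opened with T0 as well, chr2:164866967-164867046: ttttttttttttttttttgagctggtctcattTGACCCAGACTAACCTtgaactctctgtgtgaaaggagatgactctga
Abcg1, opened with T0 as well, chr17:31075656-31075735: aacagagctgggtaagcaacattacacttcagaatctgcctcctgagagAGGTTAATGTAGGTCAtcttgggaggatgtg
Arhgef3, strengthened in every treatment, chr14:27123685-27123764: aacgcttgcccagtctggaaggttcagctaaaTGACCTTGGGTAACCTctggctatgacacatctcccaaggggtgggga
Maff, opened with T0 and with LPS, chr15:79348294-79348373: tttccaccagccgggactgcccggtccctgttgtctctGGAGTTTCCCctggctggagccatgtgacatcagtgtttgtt
Tgm2, opened with LPS as well, chr2:158145449-158145528: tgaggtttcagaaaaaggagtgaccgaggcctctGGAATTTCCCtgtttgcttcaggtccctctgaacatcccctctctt
Cxcl1 and Cxcl2, opened with LPS as well, chr5:90876234-90876313: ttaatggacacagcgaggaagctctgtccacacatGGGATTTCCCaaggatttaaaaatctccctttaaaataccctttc
Socs3, opened with LPS as well, chr11:117977937-117978016: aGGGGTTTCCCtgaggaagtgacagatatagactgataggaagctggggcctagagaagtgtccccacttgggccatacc
Nfkb1, opened with LPS as well, chr3:135640320-135640399: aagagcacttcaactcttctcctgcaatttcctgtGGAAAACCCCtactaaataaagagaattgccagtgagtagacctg
Isg15, opened with LPS as well, chr4:156200840-156200919: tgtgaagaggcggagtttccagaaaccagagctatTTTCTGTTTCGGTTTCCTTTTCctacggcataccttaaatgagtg
Maml3, strengthened with LPS as well, chr3:52017954-52018033: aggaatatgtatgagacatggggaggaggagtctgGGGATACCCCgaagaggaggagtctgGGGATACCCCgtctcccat
The Abcg1 and Arhgef3 matches had 1 mismatch to DR4 and the Pltp match 2. Single matches of NF-kB in the Cxcl1 and Socs3 regions, and both matches in the Maml3 region, were found on either strand. The Isg15 region held 3 overlapping ISRE matches. These letters are descriptions of sequence and show no binding.

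Most peaks that were closed in T0-LPS were weak Veh peaks, and the largest class, itself mostly weak, had also gone from both single-treatment lists. The median score of closed peaks was 141, against 450 for shared Veh peaks, and 84.7% lay in the lowest 3 score deciles. Their median width was 231 bp, against 423 bp. The missing share fell from 66.5% in the lowest decile to 0.45% in the highest. Of the 6282 closed peaks, 2910 (46.3%, interval 45.1 to 47.6) were missing from both T0 and LPS, 1231 (19.6%) from T0 only, 989 (15.7%) from LPS only and 1152 (18.3%) from neither. At or above the median score the order turned, with 77 missing from neither, 52 from both, 35 from LPS only and 30 from T0 only. Respectively, 23, 0, 9 and 1 of them had no gap in the T0-LPS peak numbers for a peak the enhancer filter removed. For comparison, 18.2% of all Veh peaks were missing from T0 and 13.0% from LPS. All 3 comparisons share the Veh list, so the classes describe these lists and are not independent evidence.

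The opened set was mostly an LPS set. Of 1419 opened peaks, 1102 (77.7%) overlapped an LPS peak and 74 a T0 peak. By class, 1049 (73.9%, interval 71.6 to 76.1) were present in LPS only, 296 (20.9%) in neither, 53 (3.74%) in both and 21 (1.48%) in T0 only. For comparison, 6.09% of LPS peaks and 0.751% of T0 peaks were missing from Veh. Opened peaks were weak as well, with a median score of 117 against 304 for shared peaks and 79.6% in the lowest 3 deciles. Peaks opened in neither single list had a median score of 90.0 and those also in LPS only 126. The same LPS-only peaks had a median percentile of 21.9 in LPS and 15.2 in T0-LPS.

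**Figure D1:**
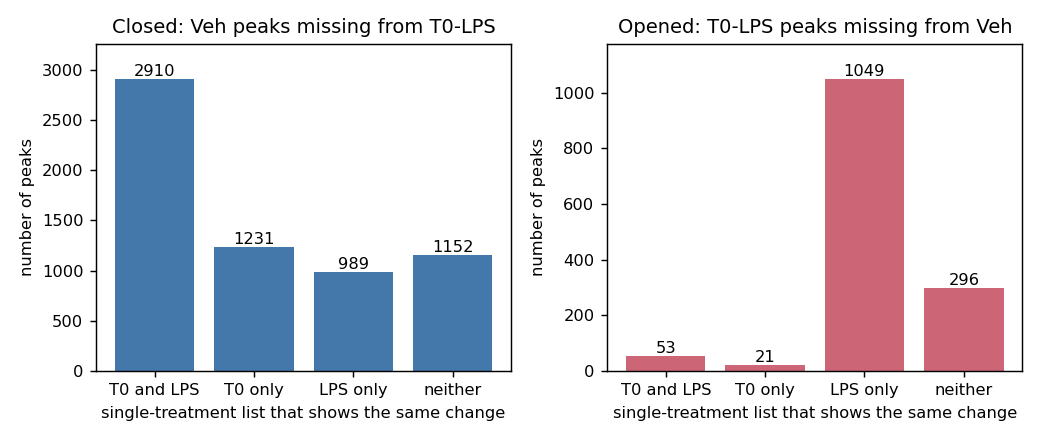
Number of closed peaks (left) and opened peaks (right), vertical axis, by which single-treatment list shows the same change, horizontal axis. The tallest bars are 2910 closed peaks missing from both T0 and LPS and 1049 opened peaks present in LPS only.

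**Figure D2:**
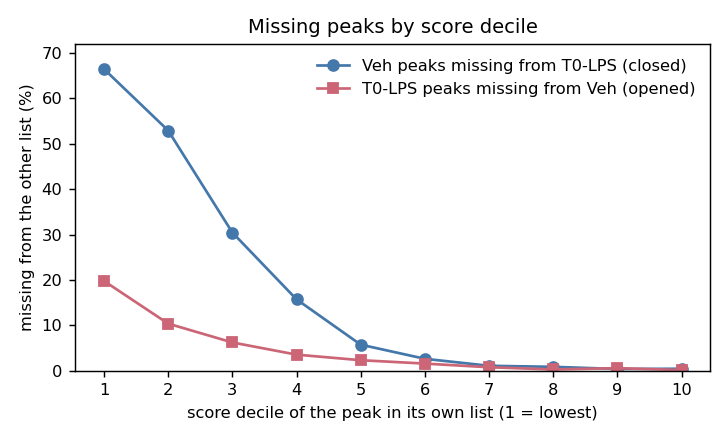
Percent of Veh peaks missing from T0-LPS (circles) and of T0-LPS peaks missing from Veh (squares), vertical axis, by score decile in the peak's own list, horizontal axis. The Veh line starts at 66.5% in the lowest decile and the T0-LPS line at 19.8%, and both end under 1%.

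The excess of closed over opened peaks was smaller with lists of equal length. With both lists cut to the same number of peaks by score, 3390 were closed and 2939 opened. Most shared peaks pair a single peak of each list, so similar counts are built in when the lists are equally long. The part of list length in the excess was therefore not tested. A missing peak may also have been called and then removed by the enhancer filter, which the gaps in the authors' peak numbers allow for 2412 closed and 543 opened peaks. Here and below, gaps were looked for only in the T0-LPS list for closed peaks and in the Veh list for opened peaks. Absence from the T0 or LPS list, which sets the classes, was not checked in this way. Restricted to peaks whose score reached the median of their list, 194 were closed and 106 opened. Of these, 33 closed and 45 opened peaks had no such gap.

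The strongest closed peaks with no gap named enhancers at different kinds of genes. An intron of Xylt1, a xylosyltransferase of proteoglycan synthesis, at chr7:117462626-117463028, scored 514 in Veh, 369 in T0 and 104 in LPS, with no peak in T0-LPS. Its percentile went from 64.7 in Veh to 58.9 in T0 and 7.43 in LPS. The peak 40056 bp upstream of Gcsh, a protein of glycine cleavage, scored 512, 286 and 134 in the same lists and none in T0-LPS. A peak in an exon of Zcchc2 (chr1:106030376-106030712) scored 483, 266 and 279. Each had a lower percentile in both single treatments than in Veh and no peak in the combination. The peaks lost with LPS but kept in T0 included an intron of Mvb12b, an ESCRT-I subunit, with a score of 470 in Veh and 231 in T0, and a peak 29746 bp upstream of Snx27, a retromer-linked sorting nexin, with 464 and 225. Among those lost with T0 but kept in LPS, the peak 68464 bp upstream of Osgin2 scored 403 in Veh and 228 in LPS. A PU.1-matched peak near Irf4, an interferon-regulatory factor, scored 321 and 182. Peaks missing from all 3 treated lists included an intron of P2ry14, a receptor for UDP-sugars (score 322), and a peak 44552 bp upstream of Bach1, a haem-responsive repressor (313).

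The enhancers opened in T0-LPS and with LPS alone were mostly weak, with 76.7% in the lowest 3 deciles, and the strongest with no gap ranked far above the class median in both lists. An intron of Pik3ca, the catalytic subunit of PI3-kinase, at chr3:32403102-32403562, scored 710 in LPS and 716 in T0-LPS (percentiles 85.4 and 88.8) with no peak in Veh or T0. An intron of Apbb1ip, an adaptor in integrin activation, scored 530 and 604 and held a DR4 match. An intron of Arhgap22, a Rac regulator, scored 463 and 457 and held NF-kB and AP-1 matches. The 53 peaks open in all 3 treatments were mostly weak, with a median percentile of 18.3 in LPS and 20.1 in T0-LPS. The 3 strongest with no gap in peak numbers ranked higher with LPS than with T0 alone. The intron of Maff, a small Maf factor, gave 82 (T0), 344 (LPS) and 290 (T0-LPS). An intron of Itga9, an integrin chain, scored 104, 439 and 426, and the peak 2211 bp upstream of Cd52, a leukocyte surface glycoprotein, 132, 552 and 403.

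The 296 enhancers open in the combination alone were mostly weak, with 93.6% in the lowest 3 deciles. The strongest with no gap in the Veh list lay in an intron of Bcl2a1d at chr9:88725237-88725668, with a score of 486 (percentile 73.3). It held NF-kB and AP-1 matches, and gaps in the T0 and LPS lists were not checked. Bcl2a1d is an anti-apoptotic gene with near-identical copies, so the placement of its reads is uncertain. The next, in an intron of Kdm3b, a histone demethylase, scored 168.

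Among 28475 peaks that matched 1 to 1, scores were ranked among these peaks in each list, and a rise of 20 percentile points or more was called strengthened and a fall of that size weakened. By this measure 1925 (6.76%) were strengthened and 2006 (7.04%) weakened. Ranking among the shared peaks centres the change, so similar counts are built in, and with percentiles of the whole lists they were 949 and 3866. With the same rule, T0 alone strengthened 1.85% and weakened 2.5% of 28291 shared peaks, and LPS alone strengthened 5.94% and weakened 6.25% of 30024. Of the strengthened peaks, 768 were also strengthened in LPS only, 658 in neither, 58 in T0 only and 57 in both, and 384 lacked a 1-to-1 match in a single list. Of the weakened peaks, 802 were also weakened in LPS only, 896 in neither, 97 in T0 only and 110 in both, and 101 lacked a match. In the median, peaks called in neither moved the same way in each single treatment by less, though single peaks did not always. The 658 strengthened ones had a median change of 23.4 points in T0-LPS, 5.90 in T0 and 12.1 in LPS, and the 896 weakened ones of -24.1, -4.58 and -11.8. A class cut at 20 points holds peaks on both sides of it in the single treatments, so "neither" is not an absence of change.

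**Figure D3:**
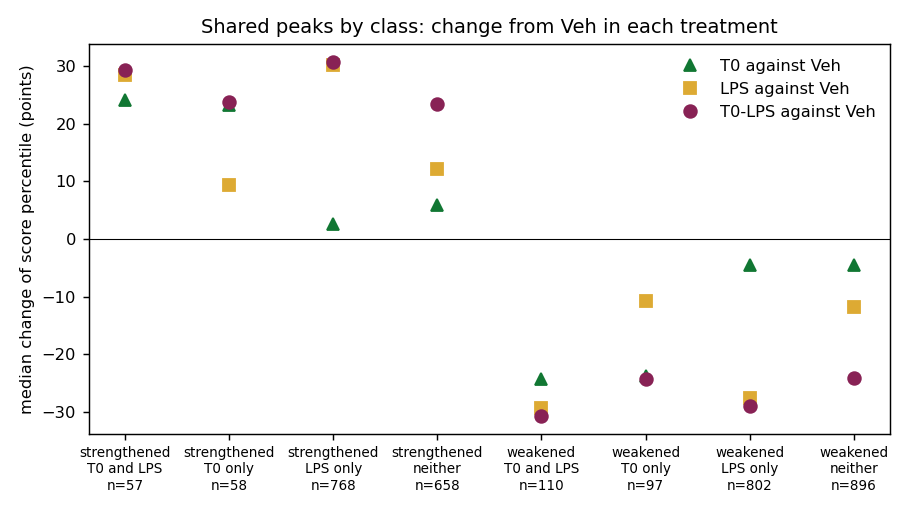
Median change of score percentile from Veh, in points (vertical axis), for the strengthened and weakened shared peaks of each class, with T0 as triangles, LPS as squares and T0-LPS as circles. In the class strengthened in LPS only, LPS and T0-LPS lie at 30.2 and 30.7 and T0 at 2.63, while in the T0-only class T0 lies at 23.3 and LPS at 9.43.

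Shared peaks were narrower in T0-LPS in 76.4% of cases (interval 75.9 to 76.9), with a median change of -9.15%. Widths grow with depth, which is unknown here. Against that general shift, 31.0% of strengthened and 96.5% of weakened peaks were narrower.

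Named strengthened enhancers showed both patterns, that of LPS and that of T0. An intron of Susd1 scored 105 in Veh, 710 in LPS and 720 in T0-LPS, with no T0 peak and a change of 85.9 points. An intron of Itgb8, an integrin chain that activates TGF-beta, scored 84, 811 and 649. The Maml3 intron, at a Notch coactivator gene, scored 84 and 148 without LPS (Veh and T0) and 584 and 608 with it (LPS and T0-LPS). Arhgef3, a RhoA exchange factor, had an intronic peak at chr14:27123577-27123874 that rose in every treatment. Its scores were 158 (Veh), 354 (T0), 290 (LPS) and 630 (T0-LPS). Its rank among shared peaks went from 8.04 to 56.2, 42.2 and 83.3 in that order. The peak 5173 bp upstream of Rnf7, a ubiquitin-ligase subunit, which also held DR4 and AP-1 matches, scored 208, 241, 258 and 321. It was classed as strengthened in T0 only, but its change was 25.3 points in T0 and 19.3 in LPS, just under the cut.

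The largest falls named here were also seen with LPS alone. The peak 177079 bp from Rnf152, a lysosomal ubiquitin ligase, gave 845 (Veh), 598 (T0), 272 (LPS) and 110 (T0-LPS), a change of -75.2 points against -45.4 in LPS alone. The peak 117181 bp from Ly86, which encodes the MD-1 partner of the TLR-like RP105, scored 623, 487, 191 and 103. An intronic peak of Stard8, a GTPase-activating protein, fell in both single treatments as well, with scores of 567, 232, 166 and 81. The intron of Rassf8 gave 731, 309, 221 and 141.

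Motif content differed between opened and closed peaks. NF-kB matches were found in the central 200 bp of 302 of 1415 opened peaks (21.3%, interval 19.3 to 23.5), against 2.70% (2.37 to 3.07) of shared T0-LPS peaks of the lowest 3 deciles and 4.84% of the whole T0-LPS list. ISRE matches were in 8.76% against 4.04%, and C/EBP matches in 16.6% against 11.0%. PU.1 matches were less common, at 5.87% (4.76 to 7.21) against 8.80% (8.20 to 9.43). The shares for AP-1 (17.4% against 16.5%), the hexamer AGGTCA (13.3% against 11.8%) and DR4 (2.69% against 1.70%) had overlapping intervals. Within the opened set, NF-kB matches reached 25.3% (22.8 to 28.0) of peaks also in LPS only and 8.84% (6.11 to 12.6) of those in neither single list. Of the 21 peaks also in T0 only, 3 held DR4 (14.3%, 4.98 to 34.6).

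Closed peaks went the other way for NF-kB. Matches were in 1.40% (1.14 to 1.72) of 6280 closed peaks, against 5.02% (4.46 to 5.63) of weak shared Veh peaks and 3.34% of the whole Veh list. The weak shared peaks are those that kept a T0-LPS peak, so the choice of background bears on the size of this gap. All shared Veh peaks gave 3.76%. ISRE matches were in 3.26% (2.85 to 3.73) against 5.02%, but in 3.53% of all shared Veh peaks, within that interval. PU.1 matches were in 10.3% (9.57 to 11.1) against 7.42% (6.75 to 8.16). Beyond 1 kb of a TSS, a setting chosen after seeing the data, they were in 12.0% against 9.98%. AP-1 (15.9% against 15.3%) had overlapping intervals. The hexamer AGGTCA was in 13.0% (12.2 to 13.8) of closed and 11.4% (10.6 to 12.3) of weak shared peaks. By closed class, it was in 16.2% (14.0 to 18.6) of peaks missing from LPS but kept in T0. It was in 11.2% (9.57 to 13.1) of those missing from T0 only, 12.65% from both and 12.9% from neither. The difference for AGGTCA over all closed peaks turned when whole peaks were scanned (ratio 0.96). DR4 was in 2.15% and 2.05%.

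**Figure D4:**
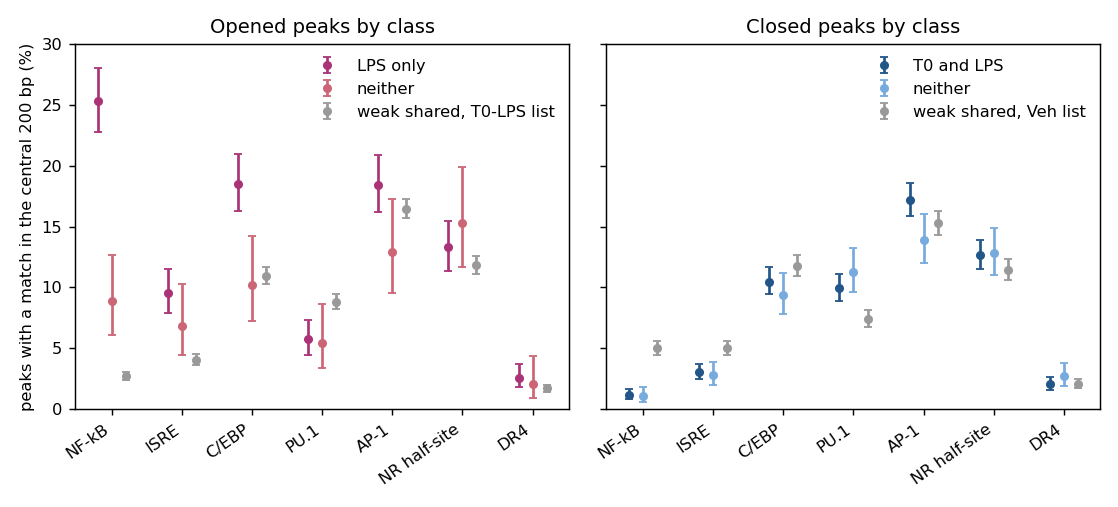
Percent of peaks with a motif match in the central 200 bp (vertical axis, bars are Wilson 95% intervals) for opened classes (left) and closed classes (right) beside weak shared peaks of the same list (grey), where NR half-site is the hexamer AGGTCA. NF-kB is at 25.3% in peaks opened with LPS only and at 2.70% in weak shared T0-LPS peaks.

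Among shared peaks, NF-kB matches were in 14.2% of strengthened and 0.70% of weakened peaks, against 3.73% of all 1-to-1 peaks, and in 20.7% of those strengthened in LPS only. Weakened peaks had PU.1 matches in 13.7% and AP-1 matches in 20.9%, against 8.63% and 17.0%. Only 13.5% of weakened peaks lay within 1 kb of a TSS, a smaller share than of the peaks between the thresholds. Weak shared Veh peaks beyond 1 kb of a TSS held PU.1 in 9.98% and AP-1 in 21.5%. The part of TSS distance in the shares of weakened peaks was not tested. DR4 was in 5 of 57 peaks strengthened in T0 only (8.77%, 3.80 to 18.9), against 1.83% of all. Median GC content differed as well, at 66.5% in that class, 49.0% in weakened and 54.0% in the 24544 peaks between the thresholds, and its part in the motif shares was not tested.

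Fewer changed peaks than shared peaks lay at TSSs. A midpoint within 1 kb of a TSS was found for 23.7% of opened peaks (interval 21.5 to 26.0) and 24.1% of closed peaks (23.1 to 25.2). The weak shared peaks gave 33.6% in the T0-LPS list and 38.7% in the Veh list. The opened classes ranged from 18.8% (LPS only) to 38.5% (neither). Strengthened peaks were at a TSS in 35.7%, weakened in 13.5% and the rest in 44.1%. Within the strengthened set, the share was 67.2% in the T0-only class, 53.2% in neither and 24.2% in LPS only.

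Genes of sterol and lipid handling that LXR regulates had both opened and closed enhancers nearby. Of 20 such LXR targets, 8 had an opened peak within 100 kb of the TSS, against 18.1% of 21911 protein-coding genes. 15 had a closed peak, against 49.6% of genes, 12 a strengthened peak, against 24.6%, and 9 a weakened peak, against 18.3%. The targets had a median of 7.5 Veh peaks nearby, and all genes 5.00, so a gene with many peaks had more chances, and that part of the counts was not tested. The 11 opened peaks were 3 present in T0 only, 5 in LPS only and 3 in neither.

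Peaks at the sterol efflux transporters moved in both directions, with 4 strengthened, 2 weakened and 1 closed within 100 kb of Abca1 and 1 opened, 2 strengthened and 2 closed near Abcg1. These windows held 15 Veh peaks at Abca1 and 7 at Abcg1. An intronic peak of Abcg1 at chr17:31075461-31075809, which holds the DR4 match printed above, scored 74 in T0 and 242 in T0-LPS and had none in Veh or LPS, a percentile of 1.64 and 41.8. The gaps in the peak numbers allow a removed Veh peak here. A peak 57809 bp upstream of Abca1, at chr4:53217576-53217832, scored 150 (Veh), 277 (T0), 69 (LPS) and 476 (T0-LPS), and was 257 bp wide in Veh and 924 bp in T0-LPS. Within Abca1 itself, an intronic peak 39318 bp from the TSS had scores of 536, 561, 578 and 640. Another intronic peak, 4299 bp from the TSS, scored 397 in Veh, 232 in T0 and 226 in LPS and was closed in T0-LPS, where the gaps allow a removed peak. Of the weakened Abca1 peaks, the intronic one 10049 bp from the TSS gave 569 (Veh), 226 (T0), 481 (LPS) and 259 (T0-LPS), and the one 27446 bp upstream 382, 277, 142 and 118. The closed Abcg1 peaks, 9 bp and 52499 bp upstream of the TSS, were weak, with Veh scores of 90 and 53, and were in no other list. The farther one held a DR4 match.

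The lipid-transfer and desaturase genes gave the other T0-linked openings. The peak 9302 bp upstream of Pltp, the phospholipid transfer protein, scored 194 in T0 and 127 in T0-LPS with none in Veh or LPS. It was 1 of 3 opened peaks within 100 kb of Pltp, and the other 2 were present in LPS only. The same window held 3 closed peaks. A peak 21364 bp from Scd2, in the cluster of stearoyl-CoA desaturases that make monounsaturated fatty acids, scored 100 in T0 and 255 in T0-LPS with none in Veh or LPS. A peak 69904 bp from Scd2 was present in T0-LPS alone, with a score of 223, though the gaps allow a removed Veh peak. A peak 26438 bp upstream of Scd2 rose from 539 in Veh to 666 in T0 and 724 in T0-LPS, against 502 in LPS.

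Rnf145, Tgm2 and Lpl had opened peaks that were present with LPS and not with T0. The peak 14595 bp upstream of Rnf145, a ubiquitin ligase of sterol sensing, scored 486 in LPS and 427 in T0-LPS. An intronic peak of Tgm2, a transglutaminase active in clearance of dying cells, at chr2:158145353-158145743, scored 437 and 404 (percentiles 64.1 and 64.8). It held AGGTCA and NF-kB matches. An intronic peak of Lpl, lipoprotein lipase, scored 234 and 190. The closed peaks near targets included one 66078 bp from Mylip, the ligase that degrades the LDL receptor, with 427 in Veh and 315 in T0. Apoe, the apolipoprotein of cholesterol efflux, had 4 closed of 12 Veh peaks within 100 kb, with Veh scores of 114, 133, 142 and 215. The closed share over all Veh peaks was 17.7%.

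A larger share of inflammatory genes than of the other lists had an opened peak. Of 36 genes, 25 had one within 100 kb (69.4%, interval 53.1 to 82.0), against 40.0% of the LXR targets and macrophage identity genes, 21.1% of 19 interferon-stimulated genes, 15.0% of housekeeping genes and 18.1% of all protein-coding genes. The interval for LXR targets and for identity genes (21.9 to 61.3) overlaps that of the inflammatory genes. Neighbours such as Cxcl1 and Cxcl2 can share a peak. Intervals over genes, here and below, treat them as independent and so may be too narrow. The inflammatory genes had 43 distinct opened peaks, of which 38 were also in LPS only and 5 in neither, and none was in T0. The same list had a closed peak at 26 genes (72.2%, against 49.6% of all genes), a strengthened peak at 25 (69.4% against 24.6%) and a weakened peak at 17 (47.2% against 18.3%). Inflammatory genes had a median of 10.0 Veh peaks nearby. Identity genes had 12.0 and housekeeping genes 11.5, with fewer opened.

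Chemokine and cytokine genes had several opened peaks. A peak at chr5:90876035-90876420, 15014 bp upstream of Cxcl1 and 27644 bp upstream of Cxcl2, which recruit neutrophils, scored 343 in LPS and 359 in T0-LPS. Of 4 opened peaks among 18 T0-LPS peaks within 100 kb of Ccl5, the strongest lay 4389 bp upstream. It scored 447 in LPS and 330 in T0-LPS. Tnf, the inflammatory cytokine, had 5 opened of 22 T0-LPS peaks within 100 kb, with T0-LPS scores of 126 to 256 and LPS scores of 95 to 287. It had 6 closed of 23 Veh peaks. Over the whole lists 4.56% were opened and 17.7% closed. One intronic peak of Tnf itself scored 504 in Veh and 405 in T0, had none in LPS and scored 55 in T0-LPS. A peak 17760 bp upstream of it rose from 214 in Veh and 176 in T0 to 683 in LPS and 658 in T0-LPS. These neighbouring elements moved in opposite directions between Veh and T0-LPS.

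The opened peaks named here at regulators and enzymes of the response were also in LPS. A pair of intronic peaks of Nfkb1, which encodes the p105 precursor of p50, scored 612 and 515 in LPS and 366 and 328 in T0-LPS, with room for a removed Veh peak at both. The opened peak 7989 bp upstream of Socs3, an inhibitor of cytokine signalling, scored 445 and 341, and the one 62421 bp upstream of Tnfaip3, the NF-kB inhibitor A20, scored 348 and 339. Nos2, the inducible nitric oxide synthase, had peaks 33668 bp and 88 bp upstream of the TSS, with scores of 384 and 164 in LPS and 491 and 199 in T0-LPS, with room for a removed peak at the farther one. Acod1, which makes itaconate, had 4 opened of 20 T0-LPS peaks within 100 kb, against 4.56% over the whole list. A single LPS peak of score 512 overlapped a pair of T0-LPS peaks, 11270 and 11695 bp downstream of the TSS, that scored 75 and 85. Scores of different lists are not on 1 scale, but these percentiles differed too, at 71.5 in LPS and 2.56 and 4.23 in T0-LPS.

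Closed peaks at the cytokine genes included a peak 10227 bp upstream of Il1a and 50940 bp from Il1b, at chr2:129319913-129320485, which scored 491 in Veh and had no peak in any other list. The gaps in peak numbers allow a removed peak there. A peak near Il10, the anti-inflammatory cytokine, scored 268 in Veh, and it too was absent from the other lists with room for a removed peak. The peak 1444 bp upstream of Saa3, an acute-phase protein, scored 252 in Veh, 250 in T0 and 126 in LPS (percentiles 33.7, 41.1 and 13.1).

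Interferon-stimulated genes had 3 distinct opened peaks near 4 of 19 genes, a share (21.1%) near the 18.1% of all genes. The Isg15 peak, 59 bp upstream of the TSS, scored 187 in LPS and 119 in T0-LPS. A peak between Gbp2 and Gbp5, guanylate-binding proteins, scored 129 and 92 and held an ISRE match. Near Stat2 a peak of score 96 was in T0-LPS alone. The list had 13 genes with closed peaks (68.4%, interval 46.0 to 84.6, against 49.6% of all genes), among them a peak in an untranslated exon of Ifit2 that scored 225 in Veh and was absent elsewhere, and an intronic peak of Rsad2, also near Cmpk2, with 265, 134 and 95 in Veh, T0 and LPS. Mx2 was not among the protein-coding genes of the annotation.

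The strongest opened element near a macrophage identity gene scored 236. The 11 distinct opened peaks were 9 in LPS only and 2 in neither. They included peaks near Csf1r, the receptor for M-CSF, with a score of 187 in LPS and 236 in T0-LPS, near Cebpa (280 and 192) and near Spi1, which encodes PU.1 (228 and 136). Closed peaks near 14 of 20 identity genes included an intronic peak of Mrc1, the mannose receptor, with 480 in Veh and 277 in T0 and room for a removed T0-LPS peak, and one near Irf8 with 288 and 150. Ccr2, the receptor for Ccl2, had 7 closed of 15 Veh peaks within 100 kb, with Veh scores of 78 to 279. Over the whole Veh list 17.7% were closed. Housekeeping genes had closed peaks at 14 of 20 genes and opened peaks at 3, with T0-LPS scores of 110 at Gapdh and 88 at Rpl13a. The share of genes with a closed peak was 70.0% for identity and for housekeeping genes and 72.2% for inflammatory genes.

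**Figure D5:**
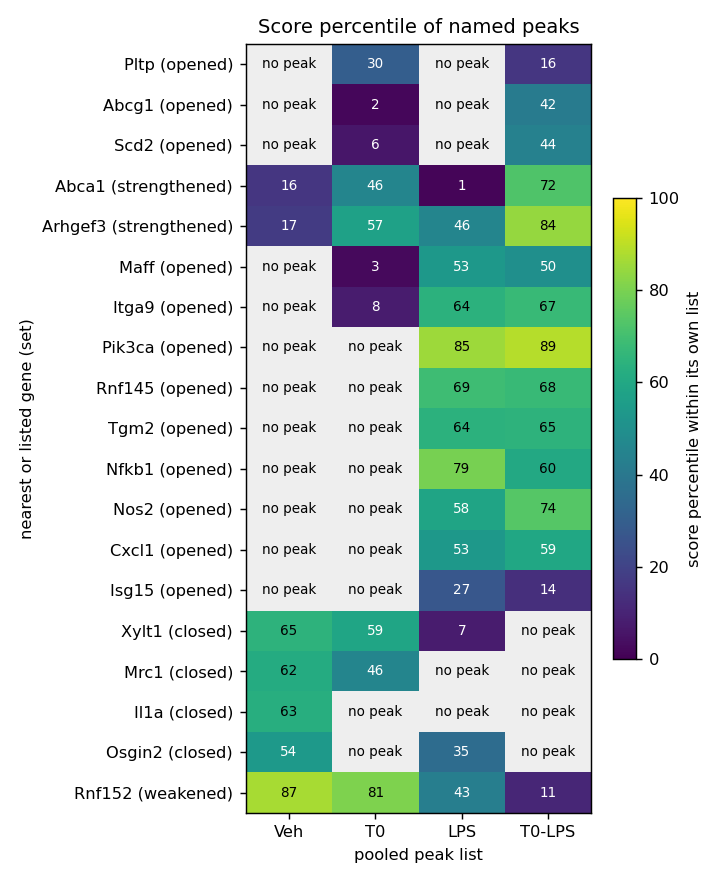
Score percentile of named peaks within each of the 4 lists (columns Veh, T0, LPS and T0-LPS), with rows for the gene and its set, and grey cells where the list has no peak. Abcg1 and Scd2 are filled in T0 and T0-LPS only, and Nfkb1, Cxcl1 and Tgm2 in LPS and T0-LPS only.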

How the data were processed

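The authors trimmed adaptors with cutadapt, aligned reads with Bowtie2, removed duplicates with SAMtools, called peaks with MACS2 on the 4 libraries of each group together and kept those at enhancers marked by H3K27ac or H3K4me2 in other macrophages. The labels name mm10. The deposited lists hold, per peak, a position, a numbered name and a score (the authors' peak score, whose scale no header states).

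Overlap (1 bp), classes, Wilson 95% intervals and percentiles were computed with Python 3.11.15, pandas 2.3.3 and scipy 1.17.1. Motifs were scanned on both strands in the central 200 bp with pysam 0.24.0: AGGTCA, DR4 (2 mismatches, so it can overlap AGGTCA), NF-kB, AP-1 (TGANTCA), PU.1 (GAGGAAGT), C/EBP (TTGCNNAA), ISRE, CRE and CTCF. Genes came from GENCODE vM21, and no peak ended past a GRCm38 chromosome. Alternatives changed the overlap, score minimum, list length, thresholds and windows. Scripts were tested on simulated data.

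Named peaks were, per class, the 3 highest-scoring with no gap in peak numbers, the largest shared changes (5 in each direction, 2 in each class) and the highest-scoring peaks of gene lists; other peaks near those genes, and the Ccl5, Acod1, Ccr2 and Apoe peaks, were chosen after their values were seen. Some items that these rules select are not reported here. The members and lists were chosen with earlier results of these data known.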

Additional observations from a re-analysis of the deposited data

How the results depend on the processing

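Lists were pooled, so leaving out a library could not be done. No paired analysis was possible because each group is 1 pooled list. Closed peaks numbered 194 at or above the median score, 3390 at equal list length and 3865 with no gap in peak numbers; opened peaks numbered 106, 2939 and 873, and 3155 with a reciprocal overlap of 50%. The share of closed peaks missing from both single lists was 31.1% with all lists of equal length and 26.8% at or above the median score. The share of opened peaks in LPS was 66.2% with reciprocal overlap, 68.2% with equal length and 83.0% at or above the median. Strengthened and weakened peaks numbered 5369 and 5672 at 10 points and 699 and 615 at 30 points. With percentiles of the whole list they numbered 949 and 3866. On that scale the peaks shared by Veh and T0-LPS had a median percentile of 58.5 in the Veh list and 52.0 in the T0-LPS list. Narrower peaks made 80.6% at or above the median and 47.7% where 10% or more was required. The NF-kB ratio of opened to weak shared peaks (7.90) was 6.25 over whole peaks, 5.26 against all shared peaks and, chosen after seeing the data, 11.0 beyond 1 kb of a TSS, where AP-1 gave 0.92. For closed peaks NF-kB gave 0.37 and AP-1 0.95 against all shared peaks, 0.17 and 0.85 beyond 1 kb, and AGGTCA 0.96 over whole peaks and 0.97 beyond 1 kb, so the small excess of AGGTCA in closed peaks turned. Within 500 bp of a TSS lay 14.5% of opened and 16.0% of closed peaks. Within 10 kb, 12 inflammatory genes and 4 LXR targets had an opened and 10 inflammatory genes a closed peak. The cause of these changes was not tested where the setting itself does not give it.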

Other observations

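Windows of 100 kb with at least 5 opened or 7 closed peaks were listed after the peak positions had been seen. The list peaks given beside them, for opened and closed windows alike, were counted only from the first to the last changed peak. The changed shares are therefore raised by construction and cannot be set against those of a whole window or list. Opened peaks gathered at Tnip1, an NF-kB inhibitor (chr11:54954093-54972702, 5 opened of 7 T0-LPS peaks), at Tnf and Lta (chr17:35174495-35218870, 5 of 9), near Ado on chromosome 10 (5 of 9), at Lcp1, an actin-bundling protein of leukocytes (5 of 14), and at Ehd1, an endocytic recycling protein (5 of 13). All 5 peaks at Tnip1 and at Tnf were also in LPS, 4 of 5 at the other windows, and none was in T0. NF-kB matches were in 3 of the 5 at Tnf, 2 of 5 at Tnip1 and at Ehd1, and 1 of 5 near Ado and at Lcp1. The share over all opened peaks was 21.3%.

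Closed peaks gathered at Ggta1, a galactosyltransferase (8 of 12 Veh peaks), Lhfpl2 (8 of 14), Bcl2l11, which encodes the pro-apoptotic BIM (7 of 10), P2ry2 and P2ry6, nucleotide receptors (7 of 14), Mef2a (7 of 13) and Clip1 (7 of 8). None of these closed peaks held an NF-kB match, and the share over all closed peaks was only 1.40%. At Mef2a, 5 peaks were missing from LPS only and 2 from both, with Veh scores of 133 to 236, and the other windows mixed 3 or 4 classes.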
